A study of Mus musculus with 12 samples.

Results

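The genes described here encode the matrix metalloproteinases (MMPs), the tissue inhibitors of metalloproteinases (TIMPs), the ADAMTS proteases and the ADAMTS-like proteins. They were chosen by name alone from the table of 37748 genes, as all gene names made of Mmp, Timp, Adamts or Adamtsl, a number and at most 1 letter. The rule found 51 genes, namely 23 MMPs, 4 TIMPs, 19 ADAMTS genes and 5 ADAMTSL genes. Of these, 45 had at least 5 counts in at least 3 of the 12 libraries and were tested, and 6 did not.

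MMPs are zinc-dependent enzymes that cut collagens, gelatin, elastin and other matrix proteins, and most are made as inactive proenzymes that are secreted or held at the cell surface. TIMPs bind their active sites and block them, and TIMP-3 also blocks several ADAM and ADAMTS enzymes. ADAMTS proteases trim procollagens and cut large proteoglycans such as versican and aggrecan, and ADAMTS-like proteins lack the protease domain and bind to microfibrils. In injured muscle these genes are transcribed by fibers, satellite cells, fibroblasts, endothelium and invading leukocytes.

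The samples were gastrocnemius muscles of 12 mice, a fast hindlimb muscle, with 3 mice in each of 4 groups and 1 single-end poly(A) RNA-seq library per mouse. The control mice were ACTA1-MCM/+, which carry a tamoxifen (TMX)-dependent Cre recombinase driven in skeletal muscle by the ACTA1 promoter. The FLExD/+ mice carried only the conditional human DUX4-fl transgene, FLExDUX4/+, in which Cre has to invert the coding part before it is transcribed. Their description label reads mild pathology, whereas their strain and treatment labels give no Cre and no TMX. The moderate and the severe FSHD-like models were bi-transgenic, FLExDUX4/+;MCM/+, with recombination confined by the promoter to muscle and mosaic among fibers. The moderate model, called mild in the treatment label, received 1 injection of 5 mg/kg TMX and the severe model 2 injections of 10 mg/kg TMX. Muscles of both models were taken on day 9, and mice were 13 weeks old. No TMX is listed for either single-transgenic group, so DUX4-fl, Cre activity and TMX itself cannot be told apart in a comparison with control. FSHD is facioscapulohumeral muscular dystrophy, which is caused by DUX4 expression in muscle.

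The libraries held between 23796902 and 29136403 counts. Levels are given as CPM (read counts scaled to a common library size) on library sizes scaled by the trimmed mean of M-values (TMM), and 3 counts correspond to between 0.0682 and 0.154 CPM. The TMM factors differed by group, from 0.711 to 0.766 in the 2 single-transgenic groups, 1.05 to 1.13 in the moderate model and 1.68 to 1.85 in the severe model. Without these factors the median log2 fold change of all genes rose to 0.65 for moderate and 1.39 for severe against control and to 0.72 between the models, so a gene that fell with TMM may stay level or rise without it. Human DUX4 was not analysed here. Of the DUX4 target genes assayed in the study, Trim36 stood at 0.617 to 1.00 CPM in the 2 single-transgenic groups, 1.35 to 1.72 CPM in the moderate model and 1.95 to 2.98 CPM in the severe model. The other target assayed, Wfdc3, was also looked up, but its name did not lead to a unique row of the gene counts, so no level is given. Whether the name matched no row or several was not recorded. The labelled tissue was checked with the mature fiber genes Ckm, Acta1, Myh4, Mylpf and Pvalb, whose summed level was 107054 to 155424 CPM in control, 49816 to 61171 CPM in the moderate model and 7117 to 13119 CPM in the severe model.

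Of the 45 genes tested, 20 rose and 3 fell in the moderate model against control, and 27 rose and 6 fell in the severe model. A call needed both an adjusted p below 0.05 in edgeR's quasi-likelihood test and a log2 fold change of 0.5 or more in size. The 20 genes are 44.4% of those tested, where 22.8% of all 18648 genes rose, and the 27 are 60%, where 31.2% of all genes rose. The fallers are 6.67% of the genes tested in the moderate model and 13.3% in the severe model, where 15.0% and 25.7% of all genes fell. Mmp8, Mmp10, Mmp13, Mmp25, Mmp27, Adamts4, Adamts18 and Adamts19 passed the filter on low counts only through their counts in bi-transgenic mice. All of them but Adamts18 rose in the severe model, so the shares that rose are a description and no support. The median log2 fold change was 0.65 in the moderate model, or 0.58 with Mmp10 at its lower bound, against 0.05 over all genes. In the severe model it was 0.88, or 0.87 with Mmp10 at its bound, against 0.10 over all genes. On library sizes without TMM factors, 33 genes rose and 0 fell in the moderate model and 38 rose and 1 fell in the severe model. With that scaling 48.6% and 72.7% of all genes rose and 4.15% and 5.95% fell, so the larger counts are shared by genes at large. Only 1 member was called lower in the moderate model without control mouse 2, without moderate mouse 1 or without moderate mouse 2. Of all genes 2873, 2497 and 2790 were called lower in these fits.

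Severe muscle had 17 of these genes above and 5 below moderate muscle, or 37.8% and 11.1% of those tested, where 16.1% and 17.1% of all genes were called. Without TMM factors these counts were 29 and 0, where 53.8% and 4.52% of all genes were called higher and lower. The groups of 3 mice did not overlap for 25 of the 45 genes between moderate and control, where 57.0% of all genes did not, and for 34 between severe and control, where 71.1% did not. Between severe and moderate they did not overlap for 29 genes, where 57.2% of all genes did not. Followed through both models, 11 genes rose in the moderate model and rose further in the severe model, 8 rose in both with no call between them, and 10 were called in no comparison. How many of all genes follow each of these patterns was not counted, so the numbers describe the members only.

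In FLExD/+ muscle no member was called against control, where 0% of all genes were called higher and 0.00536% lower. At an unadjusted p below 0.05 there were 2 of 45, Adamts5 (-0.44) and Mmp15 (-0.36), where 719 of all 18648 genes were, a similar share. DESeq2 and limma also called 0 members, where DESeq2 called 4 of all genes higher and 3 lower, and limma 2 and 1. No member had FLExD/+ and control mice that did not overlap, where 8.51% of all genes did.

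**Figure D1:**
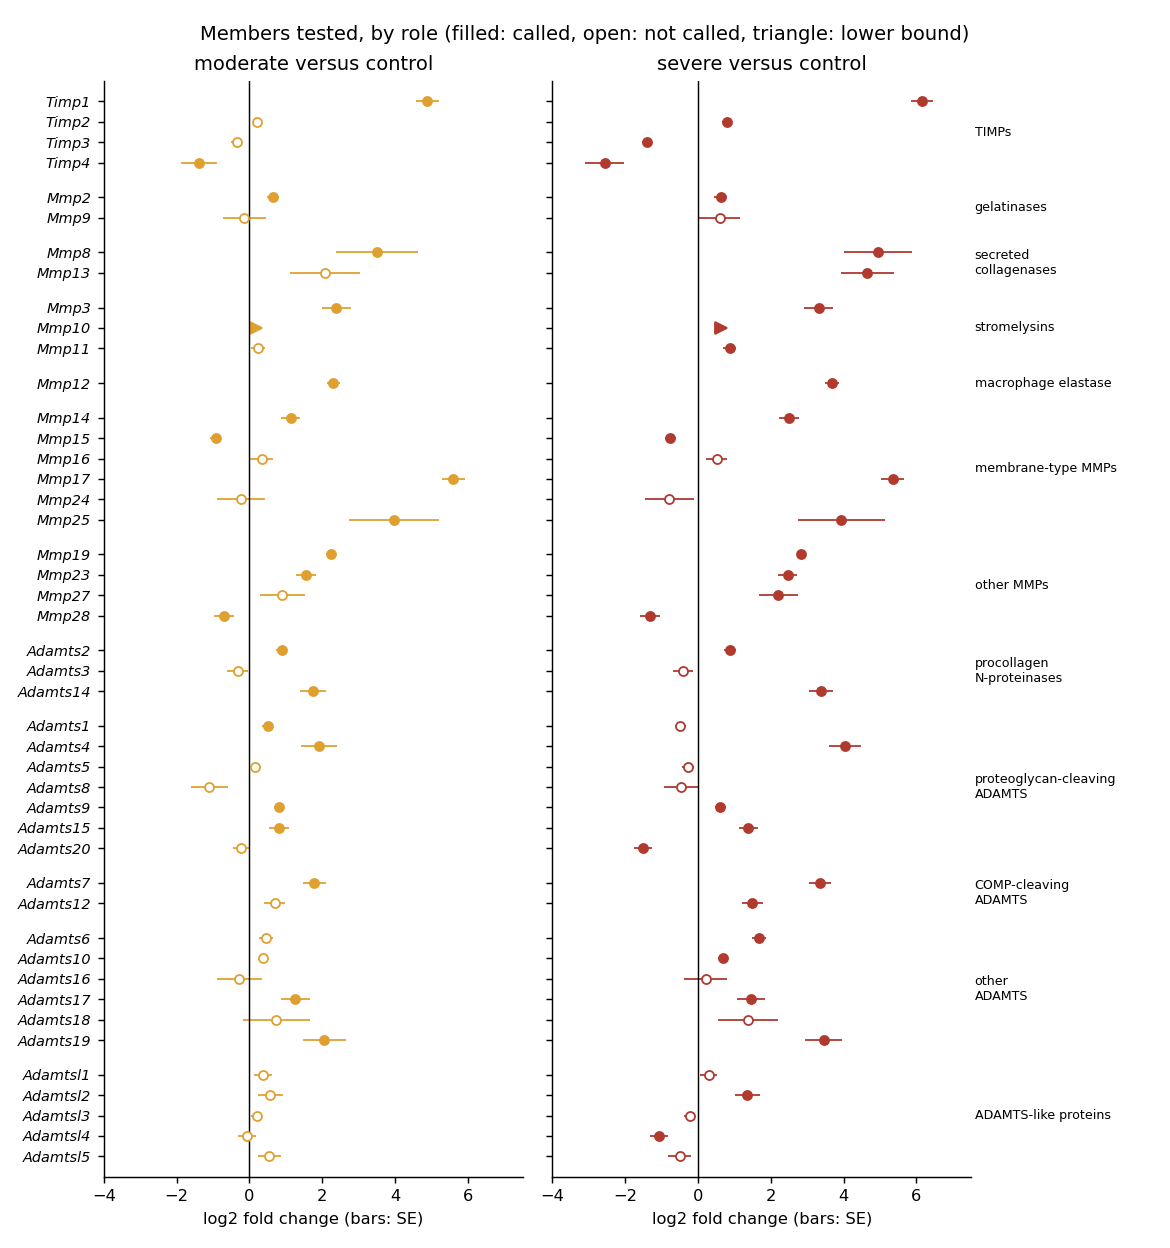
Log2 fold changes (x axis) of the 45 tested members in the moderate model (left) and the severe model (right) against control, ordered by role, with bars for the SE, filled points for called and open points for not called members. The triangles give the lower bound for Mmp10, which had 0 counts in all control mice. Most points lie right of 0, and Mmp15, Mmp28, Adamts1, Adamtsl4 and Adamtsl5 lie left of 0 in the severe model with TMM factors but right of it on log2 TPM. Adamts3, Adamts5, Adamts8, Adamtsl3 and Mmp24 also lie left of 0 there, but had a higher mean TPM in severe than in control mice.

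Timp1 had the largest rise of the family and of all members in the severe model. It encodes a secreted inhibitor that is induced in many injured tissues. Its level was 0.257, 0.623 and 0.663 CPM in control mice and 0.636, 1.43 and 0.622 CPM in FLExD/+ mice. It was 19.3, 15.9 and 11.2 CPM in the moderate model and 37.4, 38.9 and 35.7 CPM in the severe model. The 3 ranges of control, moderate and severe mice lie far apart, and the single-transgenic groups overlap. The log2 fold change was 4.88 ± 0.31 (SE) in the moderate model (adjusted p = 6.11e-08), 6.15 ± 0.31 in the severe model (adjusted p = 1.39e-09) and 1.27 ± 0.20 between the models (adjusted p = 2.02e-04). In a bulk muscle sample, a change in the number of cells of one type and a change in RNA per cell cannot be told apart.

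Timp2, which encodes the inhibitor that also helps MT1-MMP to activate pro-MMP-2, moved less. Levels were 80.8, 82.7 and 105 CPM in control, 108, 104 and 101 CPM in the moderate model and 176, 143 and 146 CPM in the severe model. The severe mice were all above the others, while moderate and control mice overlapped. The log2 fold change was 0.79 ± 0.13 in the severe model (adjusted p = 7.85e-05) and 0.57 ± 0.13 between the models (adjusted p = 0.00240), and without severe mouse 1 the latter was 0.47, under the fold threshold. In the moderate model it was 0.22 with a 95% interval from -0.08 to 0.52, but 0.81 and called without TMM factors.

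Timp3 encodes the inhibitor that stays bound to the matrix. It was at 108, 132 and 115 CPM in control, 80.6, 93.1 and 104 CPM in the moderate model and 37.5, 52.3 and 45.0 CPM in the severe model. The severe mice lie below all others, and the moderate mice lie just below the controls. Timp3 fell by 1.40 on the log2 scale in the severe model (SE 0.14, adjusted p = 5.44e-07) and by 1.04 between the models (SE 0.14, adjusted p = 3.91e-05). At -0.36 the moderate value missed the fold threshold. Without TMM factors the severe value was -0.11 and was not called, so the fall of Timp3 is one relative to other genes. Timp3 lies inside Syn3 on the opposite strand, and 21.3% of its exon bases are shared with it. The library strand is not stated, so reads of both cannot be told apart there, but Syn3 itself stood at 1.92 CPM in control and 1.31 CPM in the severe model.

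Timp4, an inhibitor with high expression in heart and muscle, was at 17.4, 26.9 and 10.9 CPM in control, 5.92, 4.68 and 10.6 CPM in the moderate model and 1.18, 4.04 and 4.18 CPM in the severe model. It fell by 2.56 on the log2 scale in the severe model (SE 0.53, adjusted p = 0.00201), and it was the 1 member still called lower there without TMM factors, at -1.29. The moderate fall of 1.38 (adjusted p = 0.0474) was not called on library sizes without TMM factors (-0.80), nor without control mouse 1 (-1.45), control mouse 2 (-1.04), moderate mouse 1 (-1.27) or moderate mouse 2 (-1.16). In the severe model every fit that left out 1 mouse kept the call, with values from -2.84 to -2.16.

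**Figure D2:**
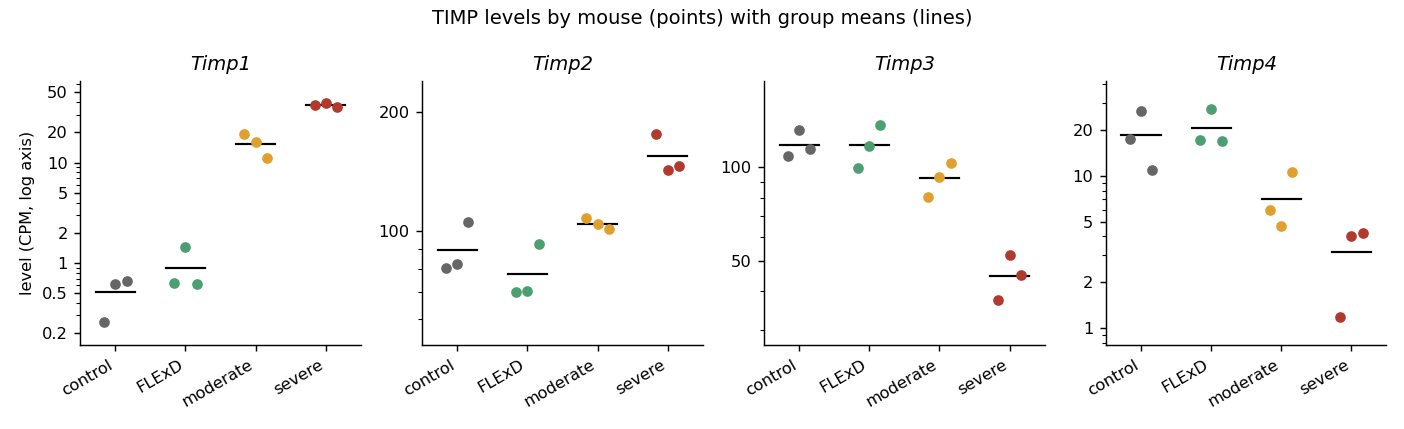
Levels of the 4 TIMP genes in CPM (log axis) in each mouse (points) with group means (lines), for control, FLExD/+, moderate and severe mice. Timp1 goes from under 1.5 CPM in single-transgenic mice to 35.7 CPM or more in severe mice, Timp2 is higher in severe mice, and Timp3 and Timp4 are lowest there; on library sizes without TMM factors Timp3 was -0.11 in the severe model and not called.

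Shares within a mouse do not depend on how libraries are scaled. TPM is a level per transcript length, and since it is above 0 in 99.8% of the entries with 0 counts, the lowest genes hold a TPM even without counts. Summed over the 4 genes in TPM, Timp3 made up 39.0%, 36.4% and 40.3% of the TIMP pool in control mice, 23.1%, 27.1% and 29.4% in moderate mice and 7.21%, 11.5% and 9.52% in severe mice. Timp1 took 0.719%, 1.12% and 1.35% in control, 26.2%, 23.4% and 16.2% in the moderate model and 36.8%, 39.2% and 37.4% in the severe model. For both genes the 3 groups do not overlap. Timp4 went from between 12.3% and 27.8% in control to between 0.841% and 2.98% in the severe model, and Timp2 stayed the most abundant or nearly so, with 34.7% to 46.1% in control and 46.4% to 55.2% in the severe model. Counts of Timp1 divided by those of Timp3 were 0.00237, 0.00472 and 0.00579 in control mice and 0.998, 0.743 and 0.793 in severe mice. With 3 mice against 3 an exact two-sided permutation test cannot give a p below 0.1, so these shares are given without a test.

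The MMP genes summed to 26.7, 27.3 and 41.3 TPM in control mice, 90.9, 81.2 and 82.5 TPM in moderate mice and 242, 235 and 179 TPM in severe mice. The TIMP genes summed to 61.2, 74.2 and 68.0 TPM in control, 108, 110 and 103 TPM in the moderate model and 265, 264 and 216 TPM in the severe model. These sums carry no TMM factor, so the totals of different groups depend on the scaling. With TMM factors the TIMP genes summed to 207 to 242 CPM in control. They summed to 214 to 226 CPM in the moderate model and 230 to 252 CPM in the severe model. In TPM, MMP transcripts per TIMP transcript were 0.436, 0.368 and 0.608 in control and 0.473, 0.387 and 0.451 in FLExD/+. They were 0.838, 0.738 and 0.802 in the moderate model and 0.912, 0.892 and 0.833 in the severe model. Both models lie above all single-transgenic mice, and they overlap with each other. The ADAMTS to TIMP ratio went otherwise, from 0.388 to 0.534 in control and 0.529 to 0.588 in the moderate model to 0.352 to 0.371 in the severe model.

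**Figure D3:**
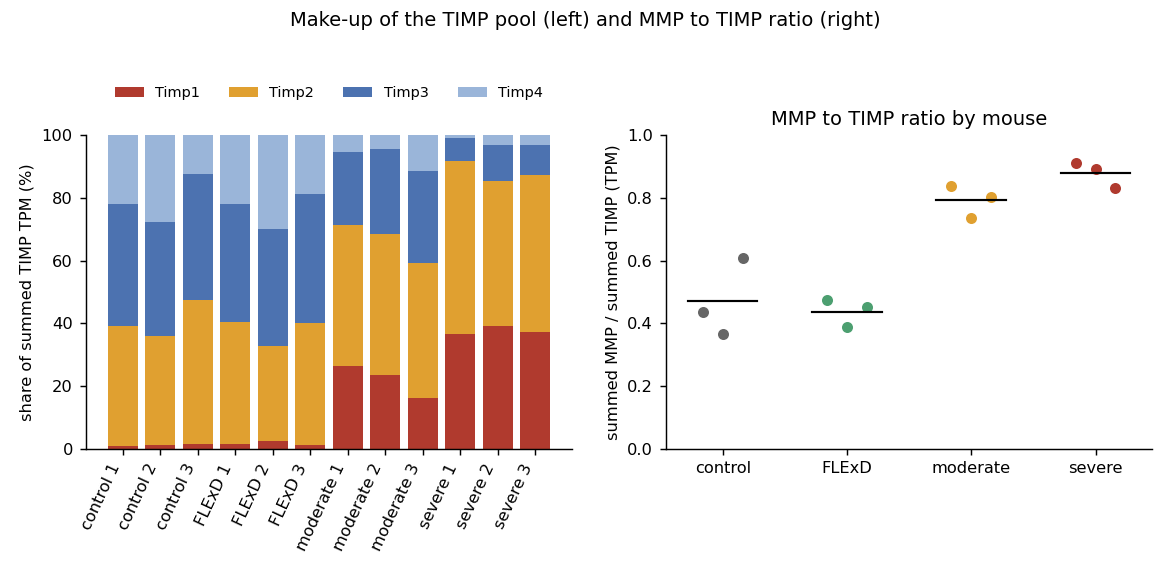
Left, share of each TIMP gene in the summed TIMP TPM (percent) of each mouse; right, summed MMP TPM divided by summed TIMP TPM in each mouse (points) with group means (lines). Timp1 takes 16.2% to 39.2% of the pool in the bi-transgenic mice and at most 2.50% in the others, and the MMP to TIMP ratio is 0.738 or more in the former and 0.608 or less in the latter.

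Ordered by TPM, the most abundant members in control muscle were Timp2 at 26.9 ± 3.99 TPM (SD, n = 3), Timp3 at 26.1 ± 1.91 TPM, Mmp2 at 16.1 ± 5.78 TPM, Timp4 at 14.1 ± 6.16 TPM and Adamts1 at 11.8 ± 1.43 TPM. Timp2 and Timp3 do not differ beyond their spread, nor do Mmp2, Timp4 and Adamts1. In the severe model the order was Timp2 at 126 ± 19.4 TPM, Timp1 at 93.8 ± 11.8 TPM, Mmp12 at 59.3 ± 18.4 TPM, Mmp2 at 56.4 ± 1.25 TPM and Mmp14 at 33.1 ± 9.26 TPM, with Mmp12 and Mmp2 within their spread.

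Mmp2 encodes gelatinase A and was the most abundant MMP in control muscle, with 46.2%, 48.8% and 55.2% of the MMP pool in TPM. Its levels were 31.8, 34.1 and 56.1 CPM in control, 68.1, 56.7 and 66.7 CPM in the moderate model and 59.8, 60.3 and 67.8 CPM in the severe model. Both models lie above control, the highest control mouse coming within 1 CPM of the lowest moderate mouse. Mmp2 rose by a log2 fold change of 0.65 ± 0.17 (adjusted p = 0.00737) and 0.62 ± 0.17 (adjusted p = 0.00633), and no difference between the models was called (-0.03, 95% interval -0.42 to 0.37), a value that was 0.67 without TMM factors. Without control mouse 1 the changes were 0.47 and 0.46, and without control mouse 2 the severe change was 0.50, each just under the fold threshold. In the severe model its share of the MMP pool was 23.2%, 24.6% and 30.9%. Mmp9, the other gelatinase, spread widely, from 0.623 to 2.42 CPM in control, 0.722 to 3.07 CPM in the moderate model and 1.63 to 4.30 CPM in the severe model, and was not called in any comparison.

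Mmp14 encodes MT1-MMP, the membrane collagenase that activates pro-MMP-2. It was at 9.11, 5.80 and 13.9 CPM in control, 24.6, 20.7 and 17.6 CPM in the moderate model and 69.97, 47.4 and 46.2 CPM in the severe model. The 3 groups do not overlap. The log2 fold change was 1.13 ± 0.27 (adjusted p = 0.00509) in the moderate model, 2.50 ± 0.27 (adjusted p = 8.19e-06) in the severe model and 1.38 ± 0.25 between them (adjusted p = 0.00111).

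Mmp17 encodes a GPI-anchored membrane-type MMP, MT4-MMP. It had 4, 12 and 6 counts in control mice and 10, 10 and 6 in FLExD/+ mice, against 617, 547 and 432 in moderate mice and 477, 630 and 764 in severe mice. Its levels were 19.5, 19.0 and 14.2 CPM in the moderate model and 10.8, 14.9 and 18.6 CPM in the severe model, so the models overlap and both lie far above the controls. This was the largest change of a member in the moderate model, 5.60 ± 0.31 on the log2 scale (adjusted p = 8.43e-09). It was 5.35 ± 0.31 in the severe model (adjusted p = 2.72e-09), and the difference between the models was -0.25 (95% interval -0.69 to 0.19).

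Of the other membrane-type genes, Mmp15 was lower, at 9.72, 7.95 and 9.85 CPM in control, 4.69, 5.06 and 4.69 CPM in the moderate model and 6.73, 4.44 and 5.03 CPM in the severe model. It fell by 0.93 (adjusted p = 1.80e-04) and 0.76 (adjusted p = 4.61e-04) on the log2 scale, but without TMM factors the values were -0.34 and 0.53, so its direction in the severe model depends on the scaling. Mmp25, a leukocyte MMP, had 1 count in all control mice together and 20, 7 and 13 counts in severe mice, a ratio of 19.3 with a 95% interval from 3.27 to 780 that covers counting error only. Mmp16 and Mmp24 were not called.

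Mmp12 encodes macrophage elastase. Levels were 4.32, 4.41 and 3.60 CPM in control, 4.16, 3.70 and 4.45 CPM in FLExD/+ mice, 20.6, 15.97 and 24.4 CPM in the moderate model and 58.1, 60.0 and 40.1 CPM in the severe model. The single-transgenic mice were nearly alike, and each model stood apart from them and from the other. The log2 fold changes were 2.31 ± 0.19 (adjusted p = 3.00e-07), 3.68 ± 0.19 (adjusted p = 1.01e-09) and 1.38 ± 0.16 between the models (adjusted p = 1.66e-05). From 2.81% to 4.87% of the MMP pool in control, Mmp12 went to 21.2% to 29.8% in the severe model. Of 6 macrophage markers chosen, Adgre1 was not found by name in the gene counts. Cd68, Csf1r, Mrc1, Itgam and C1qa moved with Mmp12, and all 5 rose in both models. Their summed level was 65.9 to 84.4 CPM in control, 289 to 368 CPM in the moderate model and 658 to 708 CPM in the severe model. Their part in the change of Mmp12 was not tested.

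Mmp3 encodes stromelysin-1, which cuts many matrix proteins and activates other MMPs. Its levels were 0.772, 0.862 and 2.08 CPM in control, 7.95, 4.71 and 6.85 CPM in the moderate model and 11.98, 16.5 and 8.87 CPM in the severe model, with no overlap between the groups. The log2 fold changes were 2.38 ± 0.40 (adjusted p = 3.55e-04) and 3.31 ± 0.39 (adjusted p = 9.16e-06). The difference between the models, 0.93 ± 0.31 (adjusted p = 0.0285), was not called without moderate mouse 2 (0.75), moderate mouse 3 (0.99), severe mouse 1 (0.97) or severe mouse 2 (0.69). Mmp10, stromelysin-2, had 0 counts in all 6 single-transgenic mice, 4, 7 and 4 counts in the moderate model and 10, 10 and 9 counts in the severe model. Against a floor of 3 counts its level was at least 1.14-fold higher in the moderate model and at least 1.55-fold higher in the severe model. Mmp11, stromelysin-3, rose in the severe model (0.87 ± 0.19, adjusted p = 8.06e-04), with 2.06, 2.06 and 2.23 CPM in control and 3.89, 3.33 and 4.37 CPM in severe mice. Of its exon bases, 5.6% lie under Chchd10 on the opposite strand, whose level went the other way, from 236 to 47.0 CPM.

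The collagenases were near the floor in control muscle. Mmp13 had 0, 1 and 2 counts in control mice and 0 in all FLExD/+ mice, 13, 2 and 5 counts in moderate mice and 87, 42 and 42 counts in severe mice. The severe to control ratio of its counts was 27.5 with a 95% counting interval from 9.24 to 134, and edgeR called it (adjusted p = 8.17e-05). The moderate value of 2.07 passed in 1 of the fits that left out a mouse, the one without moderate mouse 2 (2.47). It also passed on library sizes without TMM factors (2.61) and in limma with 0.1 added to TPM (0.86). Mmp8, the collagenase named for neutrophils, had 1 count in the control mice together, 12, 2 and 7 counts in the moderate model and 38, 19 and 24 counts in the severe model (ratio 39.0, interval 6.81 to 1560; adjusted p = 2.49e-04). Of the 5 neutrophil markers Ly6g was at 0 in all mice and Mpo at 1 count at most, while Retnlg rose in both models (3.14 and 3.64 on the log2 scale, adjusted p = 9.18e-04 and 1.03e-04), S100a8 rose in the severe model (1.29, adjusted p = 0.0121) and S100a9 was not called. The summed level of all 5 was 0.568 to 1.10 CPM in control and 3.40 to 4.08 CPM in the severe model.

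Mmp3, Mmp8, Mmp10, Mmp12 and Mmp13 are neighbours in the genome. On mouse chromosome 9 (GRCm38, positions of the GENCODE M21 annotation), 10 of the 23 MMP genes lie within 427.1 kb, from base 7272514 to base 7699585, in the order Mmp13, Mmp12, Mmp1b, Mmp3, Mmp1a, Mmp10, Mmp8, Mmp27, Mmp20 and Mmp7. Of these, 6 passed the filter on low counts, and 6 of 6 rose in the severe model and 4 in the moderate model, where 31.2% and 22.8% of all genes rose. Mmp8, Mmp10, Mmp13 and Mmp27 passed that filter only through the bi-transgenic mice in which they are high, so their count is a description and no support. The other 4 were silent at this depth: Mmp1a, Mmp1b and Mmp7 had 0 counts in all 12 mice, and Mmp20 had 1 count in 1 control mouse. Genes that rose and genes at 0 thus lie side by side.

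The promoters of the cluster are shown because the same letters recur in genes that rose and in genes that stayed at 0. RefSeq sequence (GRCm38.p6) was at hand for 36 of the 51 members, as windows of equal length that span a transcription start. The AP-1 motif TGANTCA, searched on both strands, occurred in 8 of these 36, and all 8 are genes of the cluster. Those are 22.22% of the members with sequence, and the motif occurred in 8.97% of all 27025 genes with a window and in 7.81% of all 32851 windows. The last 150 bases before the start follow, 5′ to 3′ on the strand of the gene, with the motif in capitals. The first 4 genes rose in the severe model, and the last pair had 0 counts in every mouse.
Mmp3 (chr9:7445672-7445821, plus strand): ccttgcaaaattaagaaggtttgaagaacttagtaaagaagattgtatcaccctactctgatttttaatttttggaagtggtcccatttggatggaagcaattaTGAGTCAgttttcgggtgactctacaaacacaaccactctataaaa
Mmp10 (chr9:7502192-7502341, plus strand): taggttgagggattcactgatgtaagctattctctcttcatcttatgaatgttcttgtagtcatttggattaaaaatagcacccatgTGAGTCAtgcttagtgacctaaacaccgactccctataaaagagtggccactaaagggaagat
Mmp12 (chr9:7347224-7347373, plus strand, the second of its 2 starts): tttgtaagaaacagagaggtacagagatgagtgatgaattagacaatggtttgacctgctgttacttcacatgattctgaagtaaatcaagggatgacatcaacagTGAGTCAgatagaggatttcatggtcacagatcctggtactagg
Mmp13 (chr9:7272364-7272513, plus strand): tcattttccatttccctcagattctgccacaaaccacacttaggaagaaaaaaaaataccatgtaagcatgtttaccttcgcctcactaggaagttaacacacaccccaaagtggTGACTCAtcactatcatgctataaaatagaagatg
Mmp1a (chr9:7463991-7464140, plus strand): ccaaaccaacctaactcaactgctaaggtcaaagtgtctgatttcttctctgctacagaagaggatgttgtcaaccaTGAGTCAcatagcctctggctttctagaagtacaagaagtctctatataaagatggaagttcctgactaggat
Mmp7 (chr9:7691940-7692089, plus strand, the first of its 2 starts): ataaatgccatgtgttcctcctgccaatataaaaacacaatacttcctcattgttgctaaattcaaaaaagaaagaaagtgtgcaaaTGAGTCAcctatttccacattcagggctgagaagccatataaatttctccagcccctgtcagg

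The motif began 46 bases before the start in Mmp3, 63 in Mmp10, 44 in Mmp12, 35 in Mmp13, 73 in Mmp1a and 63 in Mmp7. The windows of the other start of Mmp12 and of Mmp7 did not hold it. Mmp1b and Mmp20 held it as well, 93 and 95 bases before their starts. The windows of Mmp8 and Mmp27, which rose in the severe model, and of Timp1 did not hold these letters, and no window was given for Mmp17 or Adamts4. A match describes letters in a window and no more. The genes of AP-1 subunits moved unevenly: Junb rose in both models (1.69 and 1.98 on the log2 scale, adjusted p = 9.39e-05 and 1.12e-05), Fos (2.62, adjusted p = 0.00505) and Fosl2 (0.61, adjusted p = 0.00281) were called in the moderate model and Fosl1 in the severe model (1.79, adjusted p = 2.39e-05), and Jun, Jund and Fosb were not called.

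Mmp19 and Mmp23 are secreted or cell-bound MMPs outside the cluster, and both rose in steps. Mmp19 was at 2.52, 2.87 and 2.79 CPM in control, 14.03, 12.5 and 12.04 CPM in the moderate model and 16.6, 22.0 and 20.1 CPM in the severe model. Its spread was small, and the log2 fold changes were 2.23 ± 0.13 (adjusted p = 8.42e-09), 2.84 ± 0.13 (adjusted p = 1.61e-10) and 0.61 ± 0.11 between the models (adjusted p = 4.43e-04). Of its exon bases 22.3% are shared with Tmem198b on the opposite strand, which stood at 2.80 CPM in control, 16.6 CPM in the moderate model and 14.5 CPM in the severe model; the share of reads that belong to each gene was not tested. Mmp23 was at 0.566, 1.49 and 1.47 CPM in control, 3.70, 3.95 and 2.82 CPM in the moderate model and 7.12, 5.38 and 7.17 CPM in the severe model, and rose by 1.56 ± 0.27 and 2.47 ± 0.26 on the log2 scale (adjusted p = 2.20e-04 and 7.29e-07). Mmp27 rose in the severe model (2.21 ± 0.53, adjusted p = 0.00184), on 39, 37 and 22 counts. Mmp28, epilysin, fell by 1.31 on the log2 scale in the severe model (adjusted p = 6.99e-04), from 2.06, 1.87 and 1.99 CPM in control to 0.682, 0.708 and 0.997 CPM, a direction that was -0.03 without TMM factors and 0.01 on log2(TPM + 1). Its moderate value of -0.69 (adjusted p = 0.0495) was not called without control mouse 1 (-0.69), 2 (-0.76) or 3 (-0.72) or without moderate mouse 1 (-0.59) or 2 (-0.59).

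**Figure D4:**
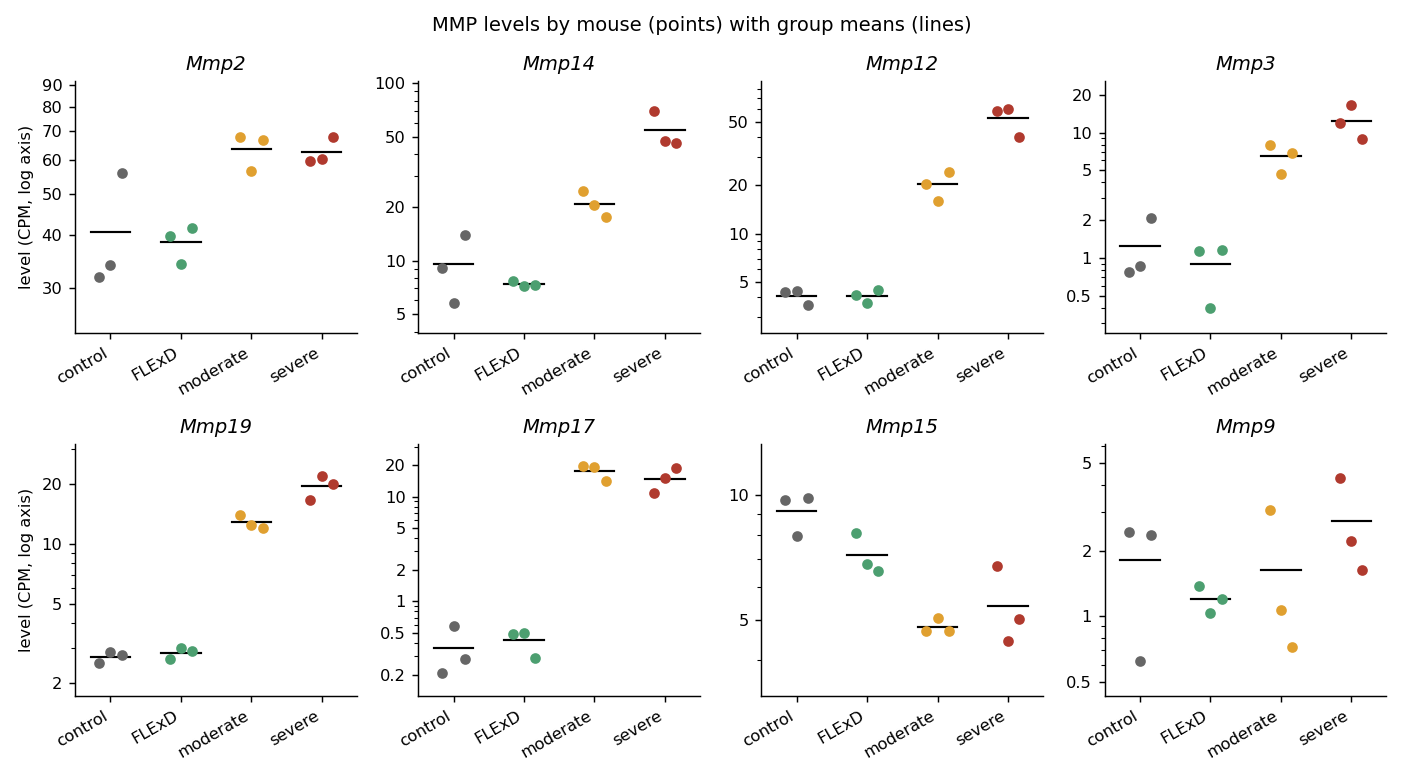
Levels of 8 MMP genes in CPM (log axis) in each mouse (points) with group means (lines). Mmp14, Mmp12, Mmp3 and Mmp19 step up from single-transgenic to moderate to severe mice, Mmp17 is high in both models with overlapping mice, Mmp2 is higher in both, Mmp9 overlaps between groups, and Mmp15 is lower in both models with TMM factors but at 0.53 in the severe model without them.

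ADAMTS genes were followed by substrate. Among the procollagen N-proteinases, which cut the amino-terminal propeptide from fibrillar procollagens, Adamts14 was at 0.463, 0.671 and 1.51 CPM in control, 3.89, 2.98 and 2.07 CPM in the moderate model and 11.7, 8.10 and 8.02 CPM in the severe model. The groups did not overlap, and the log2 fold changes were 1.74 ± 0.35 (adjusted p = 9.72e-04) and 3.37 ± 0.33 (adjusted p = 5.79e-07). Adamts2 was at 14.9, 15.9 and 23.4 CPM in control, 31.9, 33.7 and 34.1 CPM in the moderate model and 38.6, 29.5 and 31.7 CPM in the severe model. It rose by 0.88 ± 0.15 in each model (adjusted p = 3.03e-04 and 1.59e-04), with a difference between the models of 0.00 (95% interval -0.34 to 0.34) that was 0.70 without TMM factors. Adamts3, at 2.01 to 4.64 CPM in control, was not called in any comparison. Of the fibrillar collagen genes that these enzymes process, Col3a1 rose in both models (2.29 and 3.27, adjusted p = 5.06e-05 and 1.28e-06), Col1a2 was called in the severe model (1.91, adjusted p = 0.0129) and Col1a1 was not (1.76, adjusted p = 0.0733).

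Among the genes for proteases that cut large proteoglycans, Adamts4, aggrecanase-1, had the largest rise of any ADAMTS gene in the severe model. It had 3, 3 and 16 counts in control mice, 59, 32 and 32 in moderate mice and 327, 216 and 217 in severe mice, or 0.154, 0.144 and 0.757 CPM, 1.87, 1.11 and 1.05 CPM, and 7.43, 5.10 and 5.27 CPM. The groups did not overlap. The log2 fold changes were 1.90 ± 0.49 (adjusted p = 0.00500), 4.04 ± 0.43 (adjusted p = 1.28e-06) and 2.14 ± 0.34 between the models (adjusted p = 1.59e-04). Adamts5, aggrecanase-2, was at 26.7 to 36.3 CPM in control, 31.4 to 37.6 CPM in the moderate model and 21.8 to 30.2 CPM in the severe model. It was not called with TMM factors, at -0.28 in the severe model. In TPM, which carries no TMM factor, it was at 3.94 to 5.62 in control and 6.76 to 10.2 in the severe model. Its direction in the severe model thus depends on the scaling.

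Adamts1 was the most abundant ADAMTS gene, with 65.6, 56.5 and 47.9 CPM in control, 81.4, 85.4 and 74.1 CPM in the moderate model and 32.7, 50.1 and 38.3 CPM in the severe model. It was the 1 member called higher in the moderate model (0.50 ± 0.15, adjusted p = 0.0122) and lower in the severe than in the moderate model (-0.99 ± 0.15, adjusted p = 1.08e-04). The moderate call rests on a value at the threshold. It was lost without control mouse 2 (0.47) or 3 (0.36) and without moderate mouse 1 (0.49) or 2 (0.46). The call was also lost with median-of-ratios factors (0.48), DESeq2 (0.48) and filterByExpr (0.49). Against control the severe value was -0.49, which passed the fold threshold without control mouse 2 (-0.51) or 3 (-0.61) or severe mouse 2 (-0.67). This value also passed with DESeq2 (-0.51), median-of-ratios factors (-0.51) and filterByExpr (-0.50). Without TMM factors Adamts1 was at 0.80 in that comparison. Its share of the ADAMTS pool in TPM, which does not depend on scaling, was 45.2%, 40.2% and 29.1% in control, 40.1%, 40.6% and 37.5% in the moderate model and 16.1%, 25.6% and 22.1% in the severe model.

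Adamts9 rose in both models, by 0.82 ± 0.15 (adjusted p = 2.90e-04) and 0.61 ± 0.14 (adjusted p = 0.00164), from 8.54, 8.43 and 12.1 CPM in control to 16.6, 17.3 and 17.3 CPM in moderate mice and 14.4, 17.4 and 12.8 CPM in severe mice; without severe mouse 2 the severe change was 0.49. Adamts15 rose by 1.38 ± 0.26 in the severe model (adjusted p = 2.50e-04), and its moderate rise of 0.81 was not called without control mouse 1 (0.52) or 2 (0.63) or moderate mouse 1 (0.69) or 3 (0.78). Adamts20 went the other way, from 6.43, 9.15 and 13.3 CPM in control and 7.54, 8.52 and 8.76 CPM in the moderate model to 3.57, 3.42 and 3.23 CPM in the severe model, a fall of 1.50 (adjusted p = 8.82e-05) that was -0.21 without TMM factors. Adamts8 was not called. Versican, a substrate of this group, rose in both models (Vcan, 2.17 and 2.87, adjusted p = 2.09e-06 and 6.25e-08), and aggrecan (Acan) had at most 2 counts in any mouse.

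Adamts7 and Adamts12 encode proteases that cut cartilage oligomeric matrix protein. Adamts7 was at 0.515, 0.862 and 0.426 CPM in control, 2.28, 1.35 and 2.56 CPM in the moderate model and 7.75, 5.50 and 5.30 CPM in the severe model, with no overlap. It rose by 1.77 ± 0.32 (adjusted p = 2.79e-04) and 3.35 ± 0.29 (adjusted p = 9.64e-08). Adamts12 was at 7.77, 6.08 and 15.9 CPM in control, 19.0, 13.8 and 15.5 CPM in the moderate model and 30.5, 27.1 and 26.6 CPM in the severe model. It was called in the severe model (1.50 ± 0.29, adjusted p = 7.59e-04), while the moderate value of 0.70 passed without control mouse 3 (1.18), with DESeq2 (0.68), without TMM factors (1.29) and in limma (0.75 and 1.05). Its difference between the models, 0.80 (adjusted p = 0.0340), was not called without moderate mouse 2 (0.70) or 3 (0.80) or without severe mouse 1 (0.74), 2 (0.83) or 3 (0.85). Comp itself was not called.

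The remaining ADAMTS genes have other or less known substrates. Adamts6 rose in the severe model, from 2.62, 2.54 and 3.36 CPM in control to 11.3, 7.58 and 8.31 CPM (1.67 ± 0.19, adjusted p = 1.48e-06), and its moderate value of 0.46 passed without moderate mouse 2 (0.55), without TMM factors (1.05) and in limma with 0.1 added to TPM (0.67). Adamts10, a microfibril-associated protease, rose in the severe model by 0.67 ± 0.11 (adjusted p = 9.77e-05). Adamts19 had 0, 1 and 4 counts in control mice, 12, 11 and 9 in moderate mice and 45, 39 and 35 in severe mice, and rose by 2.06 and 3.45 (adjusted p = 0.00945 and 2.35e-05). Adamts17 rose by 1.26 and 1.45 (adjusted p = 0.0167 and 0.00386), and its moderate call was lost without control mouse 1 (0.86) or moderate mouse 2 (1.08) or 3 (1.13). Adamts16 and Adamts18 were not called, and Adamts13, the von Willebrand factor protease, had at most 7 counts and was not tested.

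Among the 5 ADAMTS-like genes none was called in the moderate model. Adamtsl2, whose product binds fibrillin microfibrils, rose in the severe model, from 1.23, 1.77 and 1.75 CPM in control to 5.02, 3.26 and 3.91 CPM (1.35 ± 0.34, adjusted p = 0.00294). Its value of 0.78 between the models missed the threshold, but passed without moderate mouse 3 (1.04) or severe mouse 2 (0.92), without TMM factors (1.48), in limma (0.85 and 1.34) and in a fit of the 2 models alone (0.79). Adamtsl4 was lower in the severe model, at 6.30, 5.52 and 5.69 CPM against 11.1, 17.2 and 8.47 CPM in control (-1.07 ± 0.25, adjusted p = 0.00244), but at 0.22 without TMM factors. Adamtsl5 was at 11.0, 19.8 and 9.33 CPM in control, 19.1, 22.6 and 16.9 CPM in the moderate model and 8.50, 8.69 and 11.1 CPM in the severe model. It was lower in the severe than in the moderate model (-1.05 ± 0.31, adjusted p = 0.0169), a call lost without moderate mouse 2 (-0.93) or severe mouse 1 (-0.97) or 2 (-0.99). Against control the moderate value of 0.55 passed without control mouse 2 (0.91), without TMM factors (1.14) and in limma (0.98 and 1.09). Adamtsl1 and Adamtsl3 were not called.

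**Figure D5:**
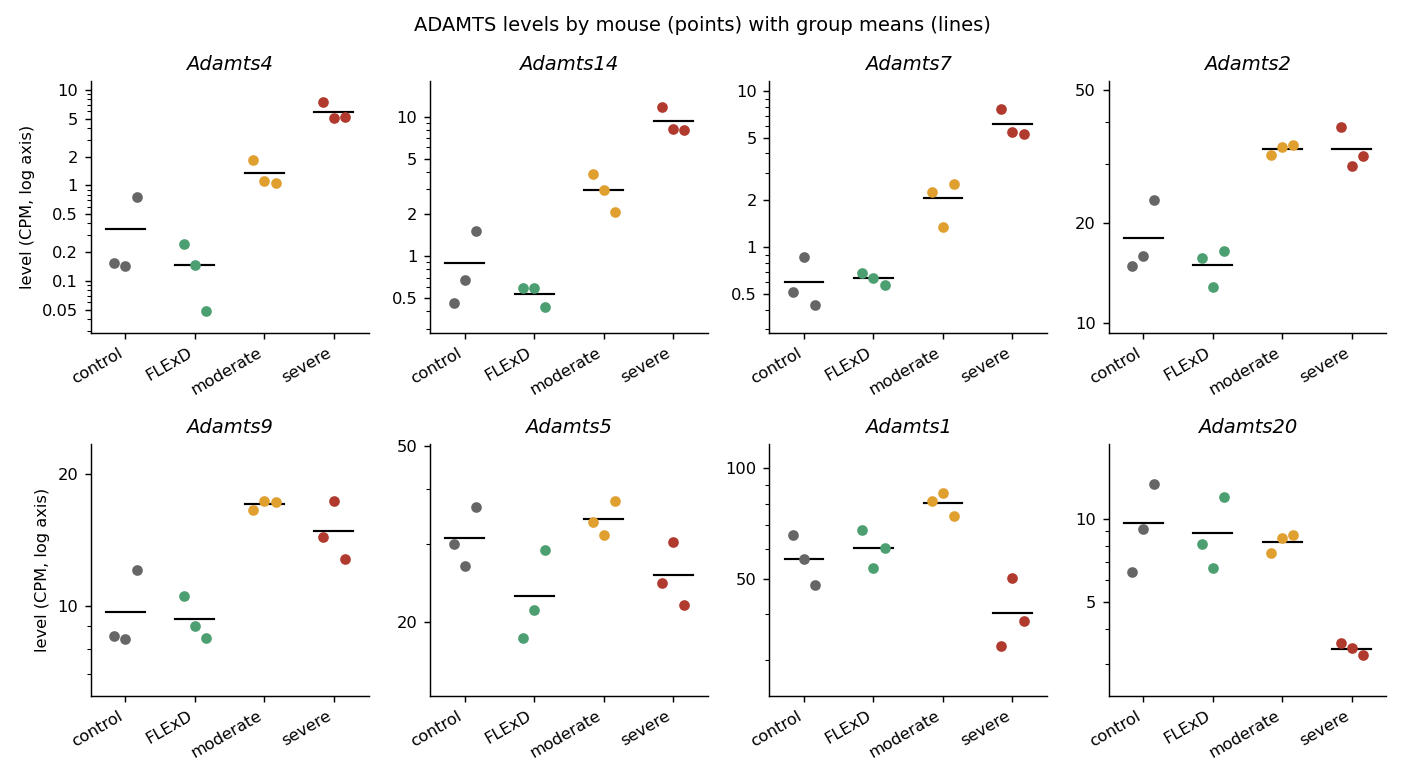
Levels of 8 ADAMTS genes in CPM (log axis) in each mouse (points) with group means (lines). Adamts4, Adamts14 and Adamts7 step up from control to moderate to severe mice, and Adamts2 and Adamts9 are higher in both models. With TMM factors Adamts5 was called in no comparison, but its TPM was higher in all severe than in all control mice. With TMM factors Adamts1 and Adamts20 are lowest in the severe mice, where Adamts1 was at 0.80 and Adamts20 at -0.21 without them.

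The other genes of the system were counted list by list, to be read against the shares of all genes that rose and fell, 31.2% and 25.7% in the severe model and 22.8% and 15.0% in the moderate model. Of 9 tested genes for MMP activators and the plasmin system, 7 rose and 2 fell in the severe model, among them the urokinase receptor gene Plaur (4.03 on the log2 scale, adjusted p = 2.21e-10), Plau (0.97, adjusted p = 5.90e-06) and Cd44, a docking site for MMPs (3.56, adjusted p = 2.63e-10), while Bsg, which encodes an MMP inducer, fell by 2.38 (adjusted p = 3.98e-10). Of 10 tested genes for other protease inhibitors and clearance receptors, 4 rose and 3 fell, with Tfpi2 at 3.63 (adjusted p = 5.67e-07) and the membrane-bound MMP inhibitor Reck at -0.63 (adjusted p = 0.0116). Of 10 tested ADAM genes 7 rose and 0 fell, led by Adam12 (5.40, adjusted p = 1.78e-10) and Adam8 (4.92, adjusted p = 2.12e-11). Of 10 genes for procollagen processing and matrix turnover 6 rose and 2 fell, with heparanase (Hpse) at 3.54 (adjusted p = 6.47e-10) and cathepsin K (Ctsk) at 2.40 (adjusted p = 8.75e-09). Of 16 tested matrix substrates 12 rose and 1 fell, with fibrillin-2 (Fbn2) at 4.07 (adjusted p = 0.00125) and biglycan (Bgn) at 3.38 (adjusted p = 6.86e-11). Of 14 inducers and transcription factors 6 rose and 1 fell, with Runx2 at 3.33 (adjusted p = 1.96e-07) and the growth factor gene Tgfb1 at 3.08 (adjusted p = 1.63e-06). Of 4 papilin and thrombospondin-repeat genes 1 rose, Thsd4 (0.86, adjusted p = 3.20e-04), and 1 fell, Papln (-1.30, adjusted p = 0.00302). In the moderate model the same 7 lists gave 5 and 1, 4 and 1, 6 and 0, 7 and 1, 9 and 0, 7 and 0, and 1 and 0 genes that rose and fell. The values of all these genes carry TMM factors and are not given without them, so falls such as that of Reck may depend on the scaling.

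Markers of other cell types moved in different directions. Beside the macrophage list, the fibroblast markers summed to 180 to 247 CPM in control, 299 to 314 CPM in the moderate model and 263 to 280 CPM in the severe model, with 3 of 6 genes higher in moderate muscle, while severe muscle had 2 higher and 1 lower (Pi16, -0.59, adjusted p = 0.0219). With TMM factors endothelial markers fell from 145 to 163 CPM in control to 64.1 to 75.8 CPM in the severe model, with 5 of 5 lower. Satellite cell and myoblast markers rose from 9.67 to 10.8 CPM to 103 to 142 CPM with 4 of 4 higher, and embryonic and neonatal myosin genes and Myl4 from 22.8 to 27.0 CPM to 1232 to 1772 CPM with 3 of 3 higher. Of the smooth muscle and pericyte markers 2 of 5 were higher and 2 lower in the severe model, of the tendon markers 1 of 4 was higher and 3 lower, and 0 of 4 mast cell markers were called there. All marker levels and calls carry TMM factors and are not given without them. Without the factors the median log2 fold change of all genes was 1.39 in the severe model, so falls of markers may depend on the scaling. The part of these cells in the changes of MMP, TIMP and ADAMTS genes was not tested.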

How the data were processed

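The authors trimmed single-end 50-base reads of poly(A) RNA, ran RSEM 1.2.4 with Bowtie on transcripts merged from UCSC, Ensembl and MISO for mm10, and gave the reads left over to TopHat 2.0.8b. The authors deposited expected counts per gene, without normalization, and TPM values, each column of which has the same sum. TPM was above 0 in 99.8% of the entries with 0 counts, so it is no plain rescaling of the deposited counts, and the step that makes them differ is not given in the sources used here. Here, expected counts were rounded and tested with edgeR 4.0.16 (R 4.3.3; TMM factors, robust quasi-likelihood test) in 1 fit of 4 groups, with Benjamini-Hochberg adjustment over 18648 genes. Calls required an adjusted p below 0.05 and a log2 fold change of 0.5 or more in size, and standard errors came from the F statistic. TPM served for levels between genes and shares within a mouse. Because RSEM splits reads between similar genes, near copies such as Mmp1a and Mmp1b or Mmp3 and Mmp10 carry more error than their counts show. In each library 31.8% to 36.2% of values were not whole.

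Nothing says whether mice were processed in batches. Gene positions and exon overlaps came from GENCODE M21. Tests were tried on simulated data first. Alternatives were scaling by library size alone, by median-of-ratios factors or in DESeq2 1.42.0, limma 3.58.1 on log2(TPM + 1) and log2(TPM + 0.1), filterByExpr, no filter, only the 2 groups compared, a log2 fold change of at least 1 or none, and each mouse left out. Figures were drawn with matplotlib 3.10.9. The members, their roles and the pathway and marker lists were chosen with earlier results of these data known. Described in full are all TIMPs and the members called in a comparison with a bi-transgenic model and at a mean of 1 CPM or more in some group, 30 genes in all, and of each pathway list the called genes with the largest change. The other genes given with values, among them Mmp8, Mmp9, Mmp10, Mmp25, Mmp27, Adamts5, Adamts19, the AP-1 and collagen genes, Vcan, Plau and Reck, were named after their values were seen. As 1 library was made per mouse, the spread is that between mice.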

Additional observations from a re-analysis of the deposited data

Results flagged for a closer look

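For Adamts1 and Adamtsl5 the differences from control had opposite signs in the 2 models, and the test between the models was called. Adamts1 was 0.50 on the log2 scale in the moderate model and -0.49 in the severe model, and the difference between them was -0.99 (edgeR adjusted p = 1.08e-04, all 3 severe mice below all 3 moderate mice). Adamtsl5 was 0.55 and -0.51, neither of which was called, and the difference was -1.05 (adjusted p = 0.0169, all 3 severe mice below all 3 moderate mice). On library sizes without TMM factors the severe values were 0.80 and 0.78, the same sign as the moderate values, and the differences between the models were -0.30 and -0.36 and were not called.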

How the results depend on the processing

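Scaling by library size alone moved the median of all genes to between 0.65 and 1.39 in the 3 comparisons with a bi-transgenic model. Of all genes 48.6%, 72.7% and 53.8% were then called higher and 4.15%, 5.95% and 4.52% lower. This scaling gave 33 higher and 0 lower members in the moderate model (20 and 3 in the main fit), 1 lower in the severe model (6) and 29 higher and 0 lower between the models (17 and 5). limma gave 0 and 0 (lower, moderate), 1 and 1 (lower, severe) and 0 and 0 (lower, severe against moderate) with 1 and 0.1 added to TPM, and 28 higher between the models with 0.1 added, where 55.0% of all genes were. A log2 fold change of at least 1 left 1 lower member in moderate muscle, where 6.53% of all genes were lower. Between the models it left 11 higher and 3 lower, where 7.68% and 7.86% of all genes were. No filter left 1 lower in the moderate model, where 8.73% of all genes were. With each mouse left out in turn, calls higher and lower ranged over 0 to 0 and 0 to 0 (FLExD/+), 16 to 20 and 1 to 3 (moderate), 26 to 28 and 6 to 7 (severe) and 12 to 18 and 4 to 5 (between the models). Among the members described in full, the severe value against control changed sign with library size alone, limma with 1 added and limma with 0.1 added for Adamts1 (0.80, 0.63 and 0.66), Adamtsl4 (0.22, 0.14 and 0.19), Adamtsl5 (0.78, 0.74 and 0.83) and Mmp15 (0.53, 0.34 and 0.40), for Mmp28 with limma (0.011 and 0.019), and for Mmp2 between the models (0.67, 0.68 and 0.70). These alternatives carry no TMM factor. Of 1920 values of named members under all alternatives, 1743 kept the call, and those called also kept the sign. Values called in neither fit are among the 1743 whatever their sign. The FLExD/+ comparison, where no member was called in the main fit, is included. No paired analysis was possible because no replicate number is shared by the groups in the labels. Depth limits what can be said of Mmp8, Mmp10, Mmp13, Mmp25 and Adamts19, which had 5 counts or fewer in all control mice together.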
